A study of Mus musculus with 8 samples.

Results

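Expression of 10 adhesion genes of the intercalated disc was described in left ventricles of mice labelled as lacking ADGRF5 in cardiomyocytes. The genes were taken from a list by role: the alpha-catenins Ctnna3 and Ctnna1, beta-catenin (Ctnnb1), N-cadherin (Cdh2), plakoglobin (Jup), desmoplakin (Dsp), plakophilin-2 (Pkp2), desmoglein-2 (Dsg2), desmocollin-2 (Dsc2) and connexin 43 (Gja1). All 10 were found among the 55487 Ensembl gene identifiers of the count files, and all 10 were among the 14695 genes that passed the low count filter, with at least 279 reads in every library. The genes were chosen by role, but with the counts of KO and control ventricles, and the lower Ctnna3 in KO, already known. The KO against control values of Ctnna3 are therefore a description.

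The KO animals ( titled CM-ADGRF5-KO) have the genotype label GPR116-/- (myocyte-specific), GPR116 being another name of ADGRF5, and the control animals (NLC) are labelled wild-type. Each genotype had 4 mice of 12 weeks of age on the C57BL/6 strain, replicates 1 and 2 male and replicates 3 and 4 female, and RNA came from the left ventricle. The Cre line used to delete the gene, and whether the controls carry Cre or a floxed allele, are not stated by the labels. ADGRF5 belongs to the adhesion family of G protein-coupled receptors, and the series title places it in cardiac homeostasis through Gαq coupling.

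The intercalated disc joins cardiomyocytes end to end. At its adherens junctions N-cadherin binds N-cadherin of the next cell, beta-catenin or plakoglobin binds the cadherin tail, and an alpha-catenin ties this complex to actin. At its desmosomes desmoglein-2 and desmocollin-2 are tied through plakoglobin and plakophilin-2 to desmoplakin and the desmin filaments, and connexin 43 forms the gap junction channels that carry the impulse between cells. In heart muscle both kinds of adhesive junction mix, and alpha-T-catenin, the product of Ctnna3, binds plakophilin-2 there. Inherited variants in several of the human desmosome genes cause arrhythmogenic cardiomyopathy.

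The libraries held 26.59 to 39.62 M gene reads in KO and 25.33 to 28.35 M in NLC. Adgrf5 itself stood at 224 ± 15.7 CPM in KO and 233 ± 17.4 CPM in NLC (SD, n = 4 each; CPM, read counts scaled to library size). Endothelial cells also express this gene, so these levels are no check of the KO labels, on which every direction below rests. The 8 listed ventricular cardiomyocyte markers summed to 73500 to 86500 CPM in KO and 69400 to 82800 CPM in NLC. Atrial cardiomyocyte markers ranged from 369 to 1490 CPM in KO and from 389 to 6150 CPM in NLC, the highest sum being that of NLC replicate 4. Of this list Nppa and Myl7 were looked at after their values were seen. Nppa gave 864 of the 870.8 CPM in KO replicate 1, so the sums do not rank the libraries as the other markers do. Myl7 had 0.264, 8.75, 183 and 8.12 CPM in KO replicates 1 to 4. In NLC replicates 1 to 4 it had 40.7, 157, 0.371 and 983 CPM. The same library held 33.6 CPM of mesothelial markers, while the 4 KO libraries held 3.38 to 8.46 CPM and the other 3 NLC libraries 5.62 to 7.46 CPM.

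Ctnna3 (ENSMUSG00000060843) lies on the plus strand of chromosome 10 of GRCm38, from 63430098 to 65003667. Its span of 1573.6 kb is exceeded by that of 8 of the tested genes. Gene counts sum the transcripts from all of its start sites, so the windows around its annotated RefSeq starts (250 bases before to 50 after, plus strand, 5′ to 3′, GRCm38.p6) are shown here as the sequence from which the counted RNA can begin. Capitals mark matches, on either strand, to any of 5 motifs: the TATA box TATAAA, the GATA motif AGATAA, the MCAT element CATTCC bound by TEAD factors, the GC box GGGCGG and the MEF2 motif.
Ctnna3 start 1, chr10:63429848-63430147: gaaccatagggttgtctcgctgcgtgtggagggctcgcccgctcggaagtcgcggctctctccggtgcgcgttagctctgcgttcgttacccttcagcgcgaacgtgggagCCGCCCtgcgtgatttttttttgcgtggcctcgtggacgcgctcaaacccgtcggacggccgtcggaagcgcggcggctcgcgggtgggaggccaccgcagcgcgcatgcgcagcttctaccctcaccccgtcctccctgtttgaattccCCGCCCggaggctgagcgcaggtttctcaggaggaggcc
Ctnna3 start 2, chr10:63457261-63457560: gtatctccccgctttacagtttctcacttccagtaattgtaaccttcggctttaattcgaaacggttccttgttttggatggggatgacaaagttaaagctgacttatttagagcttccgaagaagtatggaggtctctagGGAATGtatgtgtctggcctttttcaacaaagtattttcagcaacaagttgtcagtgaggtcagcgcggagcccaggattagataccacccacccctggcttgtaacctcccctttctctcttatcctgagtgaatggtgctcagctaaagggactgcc
Ctnna3 start 3, chr10:63820805-63821104: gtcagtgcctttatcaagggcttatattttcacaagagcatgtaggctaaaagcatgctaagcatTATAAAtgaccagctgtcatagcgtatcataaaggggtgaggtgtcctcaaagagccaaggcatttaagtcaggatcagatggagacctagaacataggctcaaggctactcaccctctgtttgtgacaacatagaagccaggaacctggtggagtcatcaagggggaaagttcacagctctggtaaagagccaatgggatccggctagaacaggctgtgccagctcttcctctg

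The window at start 1 is rich in GC (67.0%, with 39 CpG) and holds GC boxes only. The window at start 2 has 46.0% GC, 7 CpG and an MCAT match, and that at start 3 has 47.3% GC, 2 CpG and a TATAAA match. Over all 32851 such windows of the RefSeq table the median was 52.7% GC and 7 CpG, and 35.7% held a GC box, 14.7% CATTCC, 13.6% TATAAA, 11.2% AGATAA and 3.19% the MEF2 motif. Each of the 3 windows therefore matched a motif that is common in start regions, and the gene counts do not tell which start was used. GENCODE M21 gives the transcripts from start 1 and start 2 as protein-coding with 18 exons each, and the one at start 3 as a processed transcript with 3 exons. A further coding transcript, with 17 exons, starts at 63504037, for which no window is shown.

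Of the alpha-catenins, Ctnna3 stood lower in every KO library and Ctnna1 overlapped between the genotypes. Ctnna3, the alpha-T-catenin of heart and testis, had 8.62, 9.65, 12.8 and 13.7 CPM in KO replicates 1 to 4 and 18.7, 22.4, 19.9 and 23.2 CPM in NLC replicates 1 to 4. Every KO library lay below every NLC library, and the male KO libraries were the lowest. The means were 11.2 ± 2.45 CPM in KO and 21.04 ± 2.13 CPM in NLC (SD, n = 4 each). The log2 fold change of KO over NLC was -0.93 (SE 0.118), a change of -47.6% with a 95% interval of -56.3% to -37.1%. In bulk ventricle, fewer cells that express a gene and less RNA per cell cannot be told apart.

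Of the 10 genes Ctnna3 was the one that passed the test over all genes (edgeR quasi-likelihood with sex as a term, Benjamini-Hochberg adjusted p = 0.0247, threshold 0.05). Of all 14695 genes 0.102% passed, 0.0544% lower in KO and 0.0476% higher. The list was made with this contrast known, so nothing is read from the count of 1 in 10. The call was lost without any one KO library or without NLC replicate 1 or 2 (edgeR adjusted p 0.0556 to 0.182), while it held without NLC replicate 3 (0.00701) or NLC replicate 4 (0.0369). It was also lost with no sex term (0.0898) and with replicate number as a block (0.0522). Over these 8 omissions its log2 fold change lay between -1.02 and -0.84.

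Ctnna1 encodes alpha-E-catenin, the form found in most tissues (chromosome 18, 35118859 to 35254779, plus strand). It had 606, 566, 641 and 677 CPM in KO replicates 1 to 4 and 576, 602, 545 and 619 CPM in NLC replicates 1 to 4. The groups overlapped, with a log2 fold change of 0.09 (SE 0.0759, edgeR adjusted p = 0.632) and a 95% interval of -5.54% to 19.3%. Per length, in CPM per kilobase of merged exons (RPKM), Ctnna3 made up 1.25%, 1.49%, 1.75% and 1.77% of both alpha-catenins in KO replicates 1 to 4. In NLC replicates 1 to 4 this share was 2.80%, 3.20%, 3.14% and 3.23%. The share is a ratio within each library and does not depend on scaling between libraries.

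None of the 50-base windows of the longest coding transcripts of Ctnna3 and Ctnna1 occurred in a transcript of another gene. Among the other genes of the list, such windows were found for Ctnnb1 (18.6%), Dsg2 (5.07%) and Dsp (4.72%). Annotated exons of Ctnna1 overlap those of Lrrtm2, on the opposite strand, by 95 bases, and Lrrtm2 had 0 reads in every library. Lrrtm3, a synaptic adhesion gene, lies inside an intron of Ctnna3 on the opposite strand and shares no exon base with it. It had 2 to 9 reads per library in KO and 1 to 3 in NLC.

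**Figure D1:**
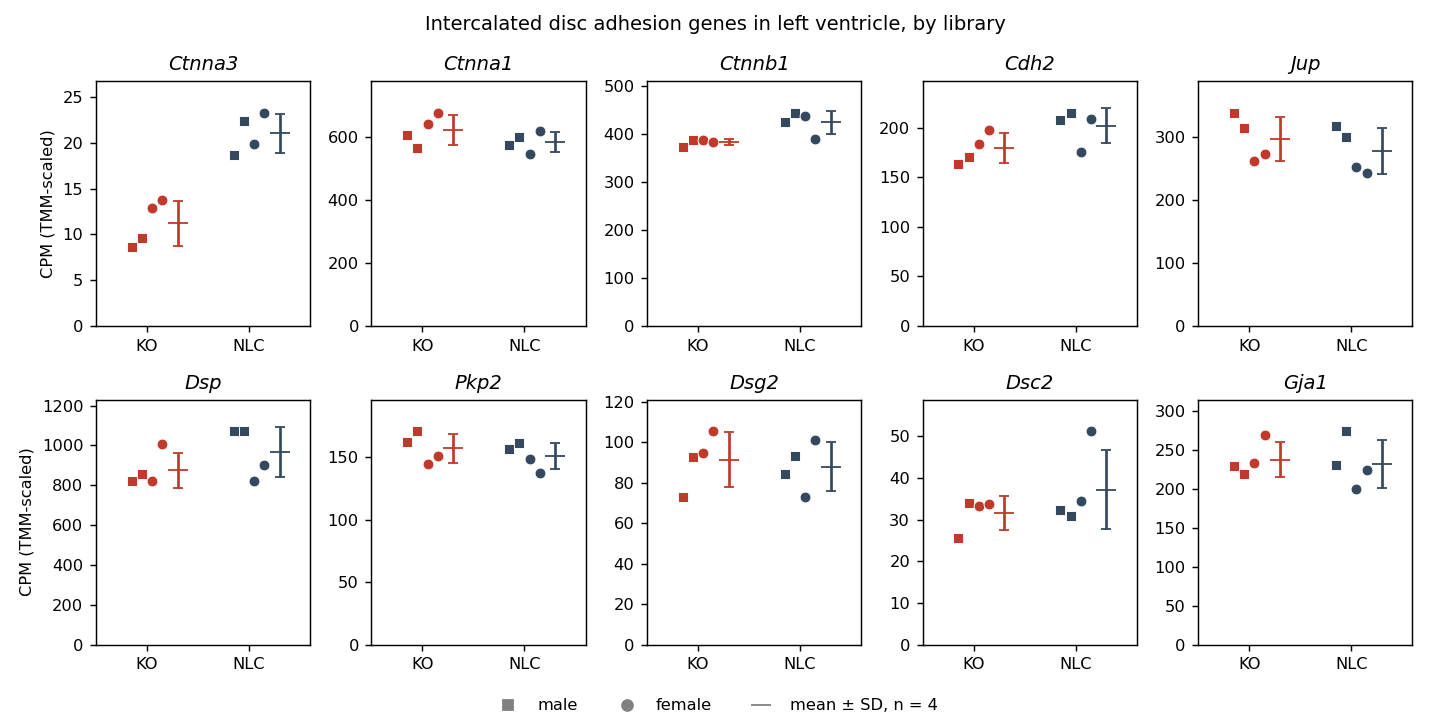
CPM of each gene in each library, KO left of NLC, squares for males and circles for females, with the mean and SD of 4 libraries beside the points and axes that start at 0. Ctnna3 has all KO libraries (8.62 to 13.7 CPM) below all NLC libraries (18.7 to 23.2 CPM), Ctnnb1 comes close to touching, and the other 8 genes overlap.

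Beta-catenin, which binds N-cadherin and also acts with TCF factors in Wnt signalling, was the other gene whose groups did not overlap. Ctnnb1 (chromosome 9, 120929216 to 120960507, plus strand) had 374, 388, 389 and 385 CPM in KO replicates 1 to 4 and 426, 444, 439 and 390 CPM in NLC replicates 1 to 4. The highest KO library and NLC replicate 4 lay next to each other, and the KO libraries varied little, with a coefficient of variation of 1.81% in KO and 5.71% in NLC. The log2 fold change was -0.15 (SE 0.0679) with a 95% interval of -18.6% to 0.294%, which did not pass (edgeR adjusted p = 0.423). Among all tested genes 6.25% had groups that did not overlap, 3.03% with KO below. Exons of Ctnnb1 overlap those of Ulk4, a gene on the opposite strand, by 759 bases, and 18.6% of its 50-base windows occur in Ulk4 transcripts. Ulk4 had 17 to 24 reads per library in KO and 10 to 19 in NLC.

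Plakoglobin, the close relative of beta-catenin that serves both kinds of junction, overlapped between the genotypes. Jup (chromosome 11, 100368958 to 100397763, minus strand) had 338, 315, 262 and 274 CPM in KO replicates 1 to 4 and 318, 301, 252 and 243 CPM in NLC replicates 1 to 4. KO over NLC came to 0.09 on the log2 scale (SE 0.0638, edgeR adjusted p = 0.536), with a 95% interval of -3.19% to 17.8%. Both groups showed the same order, with the male libraries above the female ones. Plakoglobin made up 38.4% ± 3.16 of the length-scaled sum of Jup and Ctnnb1 in KO and 34.5% ± 2.55 in NLC (SD, n = 4 each), and the ranges overlapped, at 35.2% to 42.2% in KO and 31.7% to 37.6% in NLC.

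N-cadherin, the classical cadherin of the cardiomyocyte, lies on chromosome 18 (16588877 to 16809246, minus strand). Cdh2 had 164, 171, 184 and 198 CPM in KO replicates 1 to 4 and 208, 215, 176 and 209 CPM in NLC replicates 1 to 4. NLC replicate 3 lay among the KO libraries, while the other 3 NLC libraries lay above all of them. KO over NLC came to -0.18 on the log2 scale (SE 0.0890, edgeR adjusted p = 0.446), with a 95% interval of -22.8% to 1.57%. It was -0.26 without NLC replicate 3 (adjusted p = 0.151) and -0.13 without KO replicate 1.

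The desmosome genes did not pass in either direction. Desmoplakin, which anchors desmin filaments, had 822, 855, 821 and 1006 CPM in KO replicates 1 to 4 and 1070, 1070, 822 and 900 CPM in NLC replicates 1 to 4. Dsp (chromosome 13, 38151294 to 38198577, plus strand) thus had its highest values in the male NLC libraries, and KO replicate 4 lay above both female NLC libraries. The groups overlapped, at -0.13 on the log2 scale (SE 0.105, edgeR adjusted p = 0.599).

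Plakophilin-2, the armadillo protein of the cardiac desmosome, had the smallest coefficient of variation of the 4 desmosome genes here, 7.41% in KO and 7.07% in NLC. Pkp2 (chromosome 16, 16213318 to 16272712, plus strand) had 162, 171, 144 and 151 CPM in KO replicates 1 to 4 and 157, 162, 149 and 137 CPM in NLC replicates 1 to 4. The groups overlapped (log2 fold change 0.06, SE 0.0621, edgeR adjusted p = 0.708), and the 95% interval of -5.50% to 14.4% does not reach a change of the size seen for its binding partner Ctnna3.

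Both desmosomal cadherin genes of the list lie on chromosome 18, Dsc2 at 20030633 to 20059554 on the minus strand and Dsg2 at 20558074 to 20604521 on the plus strand. Dsg2 had 72.8, 92.7, 94.6 and 105 CPM in KO replicates 1 to 4 and 84.4, 93.1, 73.0 and 101 CPM in NLC replicates 1 to 4. The groups overlapped over nearly their entire range, with a log2 fold change of 0.05 (SE 0.121, edgeR adjusted p = 0.879). Dsc2 had 25.6, 33.9, 33.4 and 33.6 CPM in KO replicates 1 to 4 and 32.2, 31.0, 34.3 and 51.1 CPM in NLC replicates 1 to 4.

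For Dsc2, 6 of the 8 libraries lay between 31.0 and 34.3 CPM, KO replicate 1 was low and NLC replicate 4 high. The log2 fold change of -0.22 (SE 0.133, edgeR adjusted p = 0.500) was -0.07 without NLC replicate 4. That library also held the highest sums of atrial, mesothelial and adipocyte markers (6150, 33.6 and 19.99 CPM), and their part in the Dsc2 value was not tested.

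Connexin 43 carries most gap junction coupling between ventricular myocytes. Gja1 (chromosome 10, 56377330 to 56402513, plus strand) had 230, 219, 233 and 270 CPM in KO replicates 1 to 4 and 231, 274, 200 and 225 CPM in NLC replicates 1 to 4. Each group held both high and low libraries, and KO over NLC came to 0.04 on the log2 scale (SE 0.105, edgeR adjusted p = 0.895). The 95% interval ran from -12.8% to 20.7%, and changes within it are not excluded by these libraries.

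The 9 genes other than Ctnna3 had log2 fold changes between -0.22 and 0.09, 5 above and 4 below 0, with a median of 0.04. The median over all tested genes was -0.005. None of the 9 passed by edgeR (adjusted p 0.423 to 0.895) and 0 had an unadjusted p under 0.05, where 11.9% of all genes did. On the same 8 libraries DESeq2 called Ctnna3 alone among the 10, and 141 of the 14079 genes it tested. For limma voom it was also Ctnna3 alone, with 13 of 14695 genes called.

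The sexes were then set side by side, using contrasts from 1 fit with a mean for each sex and genotype. In males Ctnna3 had a log2 fold change of -1.17 (SE 0.136, edgeR adjusted p = 0.0346) and in females of -0.70 (SE 0.133, edgeR adjusted p = 0.611). The difference of males minus females was -0.47 (SE 0.189, edgeR adjusted p = 0.648). Cdh2 stood at -0.34 (SE 0.105) in males and -0.01 (SE 0.105) in females, and Dsp at -0.35 (SE 0.113) in males and 0.09 (SE 0.113) in females. Gja1 stood at -0.17 in males and 0.25 in females. At an unadjusted p under 0.05 the male contrast held 3 of the 10 genes, Ctnna3, Cdh2 and Dsp (17.5% of all genes). At the same cut the female contrast held 1, Ctnna3 (5.12%), and the difference 3, Ctnna3, Dsp and Gja1 (7.46%).

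After adjustment the male contrast called Ctnna3 of the 10 genes (0.0408% of all genes). The female contrast and the difference called 0 of the 10 and 0% of all genes by edgeR (753 and 1096 genes at an unadjusted p under 0.05, and 14 and 18 genes by DESeq2). A difference between males and females is thus not shown for any of the 10. In males the serial numbers within the sample descriptions are lower for both KO libraries than for both NLC libraries. What these numbers order is not stated by the labels, and in males it cannot be told apart from genotype.

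**Figure D2:**
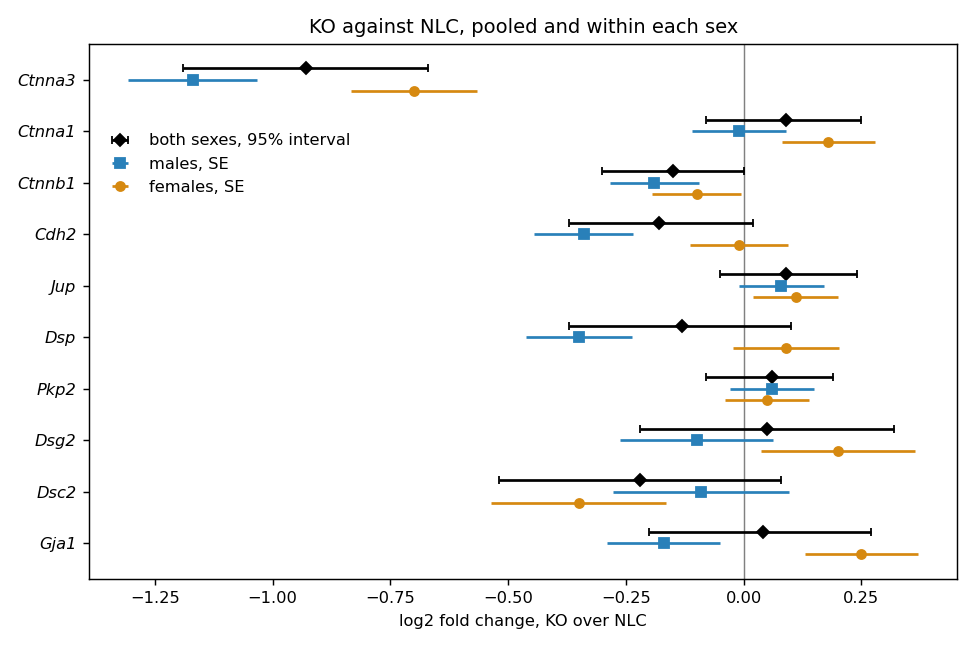
log2 fold change of KO over NLC for each gene, with diamonds for both sexes together (bars, 95% interval), squares for males and circles for females (bars, SE). Ctnna3 lies far left of 0 in both sexes (-1.17 in males, -0.70 in females), whereas Dsp and Gja1 have males left and females right of 0.

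Males and females, a contrast the choice of the genes did not name, were compared across genotypes. Plakoglobin stood higher in males, at 301.0 to 338 CPM against 243 to 274 CPM in females, with no overlap between the sexes. Its log2 ratio of males over females was 0.30 (SE 0.0639), in the same direction in both genotypes, but did not pass over all genes (edgeR adjusted p = 0.109). Pkp2 showed the same order with a smaller gap, at 157 to 171 CPM in males and 137 to 151 CPM in females (log2 ratio 0.16, SE 0.0621, adjusted p = 0.322). The libraries of both sexes did not overlap for these 2 of the 10 genes and for 6.87% of all tested genes. Mitochondrial genes held 19.6% to 21.9% of gene reads in male libraries and 17.4% to 18.3% in female libraries. Multiply mapped reads were 18.8% to 20.3% in males and 16.8% to 17.9% in females. The part of these library traits in the Jup and Pkp2 values was not tested. None of the 10 was called between males and females by edgeR (0.299% of all genes were), and Ctnna3, Jup, Pkp2 and Dsc2 (4 of 10) had an unadjusted p under 0.05 (12.8% of all genes).

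Levels were compared between genes per length of merged exons. The order in NLC ventricles ran from Dsp, Ctnna1 and Ctnnb1 at the top through Jup, Pkp2, Cdh2, Gja1, Dsg2 and Dsc2 to Ctnna3. Dsp averaged 90.7 ± 9.14 RPKM in KO and 99.9 ± 12.9 RPKM in NLC, and Ctnna1 averaged 96.9 ± 7.39 RPKM in KO and 91.1 ± 5.02 RPKM in NLC (SD, n = 4 each). These neighbours did not differ beyond their spread, since Dsp was the higher in 4 of the 8 libraries. Cdh2 and Gja1 could not be ordered either on this length, with Cdh2 the higher in 4 of 8. Ctnna1 above Ctnnb1, Ctnnb1 above Jup, Jup above Pkp2, Gja1 above Dsg2, Dsg2 above Dsc2 and Dsc2 above Ctnna3 held in all 8 libraries, and Pkp2 above Cdh2 in 7.

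At the low end Ctnna3 averaged 1.55 ± 0.339 RPKM in KO and 2.91 ± 0.295 RPKM in NLC, near the middle of all tested genes (percentile 49.0 in NLC). Dsc2, next above it, averaged 5.99 ± 0.763 RPKM in KO and 7.04 ± 1.79 RPKM in NLC. Desmoglein-2 made up 64.8% ± 1.33 of the length-scaled desmosomal cadherin RNA in KO and 60.4% ± 4.56 in NLC (SD, n = 4 each), with overlapping ranges. Levels depend on the length used. With the longest annotated transcript in place of the merged exons, Ctnna1 led in both groups, Dsp stood in place 4 in KO and place 3 in NLC, and Ctnna3 stayed last at 3.04 RPKM in KO and 5.71 RPKM in NLC. Gja1 moved up to place 5 in both groups, at 61.2 RPKM in KO and 59.8 RPKM in NLC, above Cdh2 at 37.0 RPKM in KO and 41.7 RPKM in NLC.

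**Figure D3:**
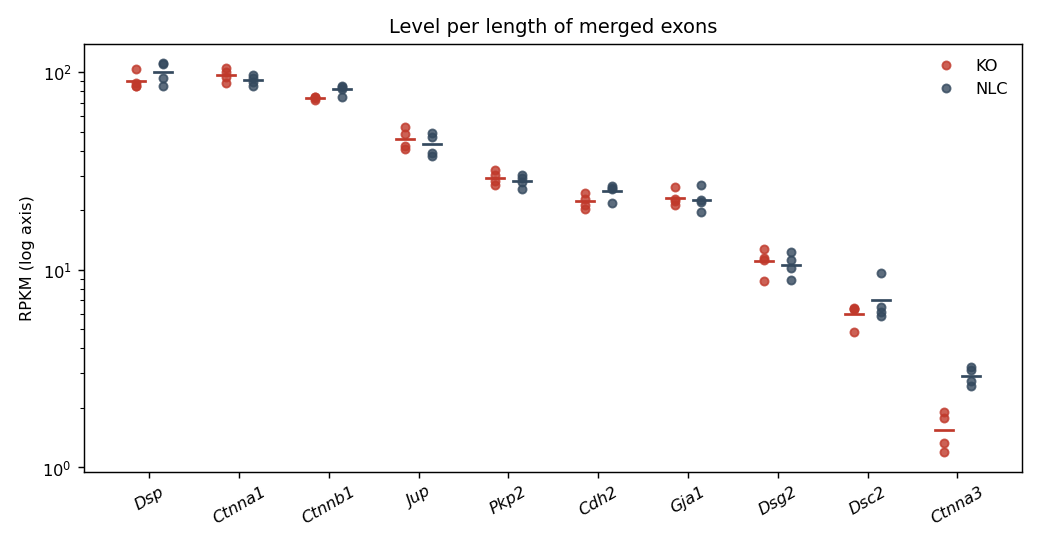
RPKM of each gene in each library on a log axis, KO left of NLC, lines for the mean of 4 libraries, genes ordered by their NLC mean. Dsp and Ctnna1 lead near 100 RPKM, and Ctnna3 is last at 1.55 RPKM in KO and 2.91 RPKM in NLC.

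At the fewest reads of any library, counting alone gives a coefficient of variation of 5.99% for Ctnna3 (279 reads), 3.63% for Dsc2 and 0.654% to 2.15% for the other 8 genes. The observed coefficients were 21.9% in KO and 10.1% in NLC for Ctnna3, and 12.7% in KO and 25.4% in NLC for Dsc2. These coefficients are over animals of both sexes. By library, KO replicate 1 was the lowest for 5 of the 10 genes and NLC replicate 2 the highest for 4. Averaged over the 9 genes other than Ctnna3, centred log2 CPM ranged from -0.097 in KO replicate 1 to 0.073 in KO replicate 4 among the KO libraries and from -0.112 in NLC replicate 3 to 0.095 in NLC replicate 2 among the NLC libraries. The range of the NLC libraries thus enclosed that of the KO libraries.

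**Figure D4:**
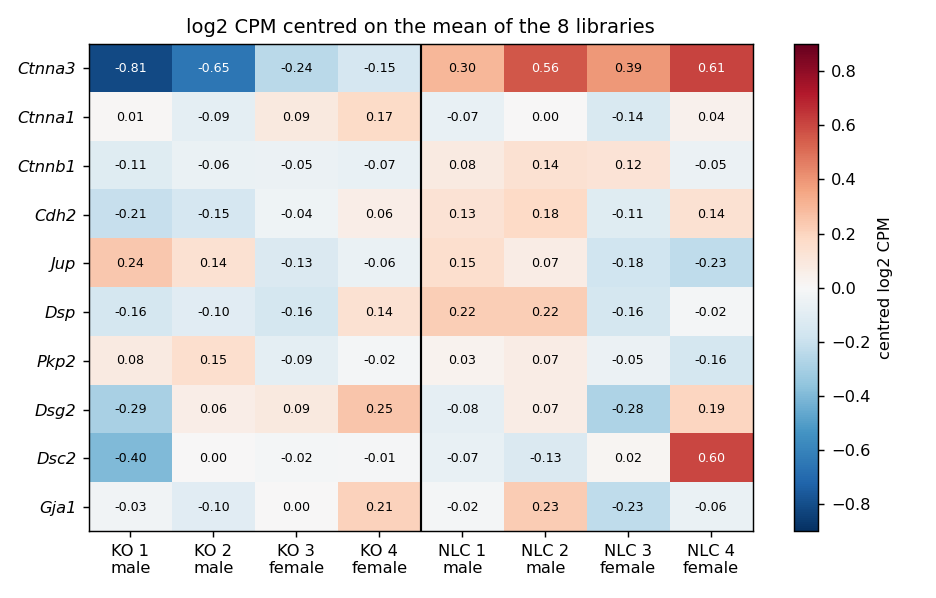
log2 CPM of each gene (rows) in each library (columns, KO left of the line), centred on the mean of the 8 libraries, red above and blue below it. The row of Ctnna3 changes sign at the line between the genotypes, Jup follows sex, and Dsc2 stands out in KO replicate 1 (-0.40) and NLC replicate 4 (0.60).

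Genomic span sets Ctnna3 apart from the other genes, which span 25.2 to 220.4 kb. Over all tested genes, log2 fold changes of KO over NLC were lower in classes of longer span. The median log2 fold change was 0.09 for the 4068 tested genes under 10 kb, -0.017 for the 8675 of 10 to 100 kb, -0.104 for the 1808 of 100 to 500 kb and -0.151 for the 135 of 500 kb and over. Within that longest class 77.8% of genes had a log2 fold change under 0, and Ctnna3 at -0.93 was the fifth lowest, below the class quartiles of -0.328 and -0.030. The part of gene length in the Ctnna3 value was not tested. Cdh2 and Ctnna1, the members of 100 to 500 kb, stood on either side of 0 at -0.18 and 0.09.

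**Figure D5:**
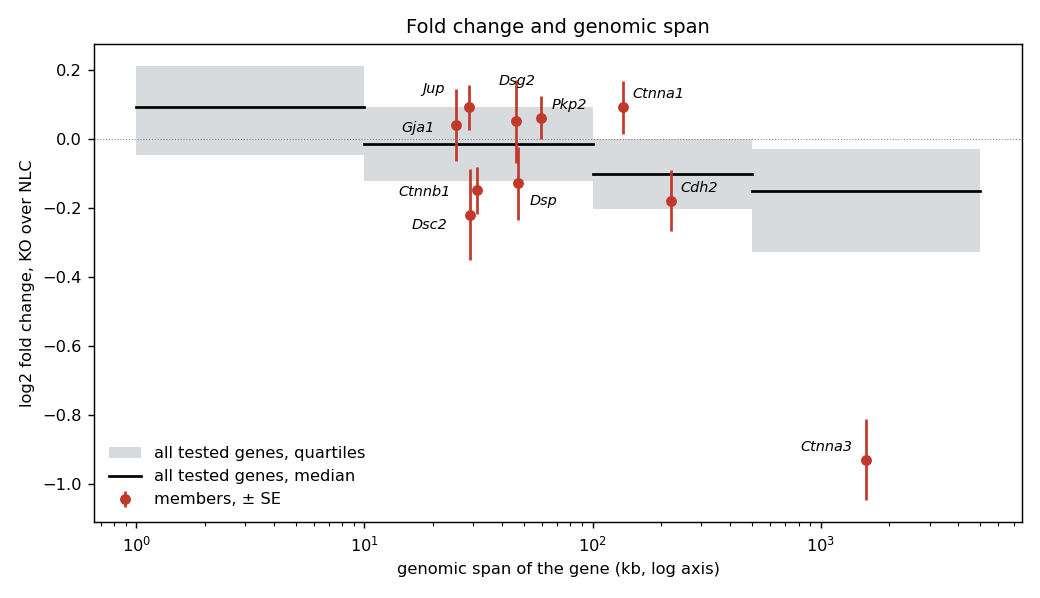
log2 fold change of KO over NLC against genomic span on a log axis, points for the 10 genes with SE, black lines and grey bands for the median and quartiles of all tested genes in 4 span classes. The class medians descend from 0.09 to -0.151, and Ctnna3 (-0.93) lies below the band of its class.

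The genes most like Ctnna3 across the 8 libraries were found by the mean absolute difference of centred log2 CPM, over 12054 genes of at least 1 CPM. They were Zfp712, a zinc finger gene (0.145), Ppp2r3a, which regulates the phosphatase PP2A (0.154), Dpyd, the enzyme that starts pyrimidine breakdown (0.158), Pkia, an inhibitor of protein kinase A (0.163), and Dmd, which encodes dystrophin (0.171). The median over all candidates was 0.471. Of the other 9 disc genes of the list Dsc2 was the closest at 0.358, followed by Cdh2 at 0.377 and Ctnnb1 at 0.390. Dmd had 21.6, 29.5, 48.2 and 44.5 CPM in KO replicates 1 to 4 and 73.9, 76.5, 74.4 and 91.0 CPM in NLC replicates 1 to 4. Since these genes were picked for their likeness to Ctnna3, their order over the libraries is a description. A second measure, the correlation after genotype and sex were taken out, named 5 other genes, with 0 shared.

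Partner genes of the disc were counted in lists made by role. Of 94 genes 79 were tested, and 0 passed in either direction by edgeR, against 0.102% of all genes, with 6 higher and 7 lower at an unadjusted p under 0.05, a cut that 11.9% of all genes passed. DESeq2 called 1 and limma voom called 0, while edgeR with no low count filter called 6. Of the adherens junction partners 0 of 21 passed, with a median log2 fold change of -0.08. Its most abundant genes were Actn2, the alpha-actinin of the Z-disc (593 ± 42.5 RPKM in KO and 645 ± 14.9 RPKM in NLC, log2 fold change -0.12), Nrap, which ties actin to the disc (-0.08), and Cdh5, the cadherin of endothelium (-0.17). Of the desmosome partners 0 of 8 passed (median 0.12). Des, the desmin gene, had 762 ± 40.1 RPKM in KO and 656 ± 53.3 RPKM in NLC (SD, n = 4 each; log2 fold change 0.22, SE 0.0682, edgeR adjusted p = 0.309), followed by Perp (0.13) and Pkp4 (0.22).

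Of the gap and tight junction partners 0 of 13 passed (median -0.08). Tjp1, the scaffold ZO-1 that binds connexin 43, stood at -0.16 (SE 0.0828), and the connexin genes Gja4 and Gja3 at -0.03 and 0.08. Gja5, the connexin 40 of atria and conduction tissue, was looked at after its values were seen. It had 1.10, 1.04, 1.53 and 1.2 RPKM in KO replicates 1 to 4 and 1.32, 1.43, 0.939 and 5.68 RPKM in NLC replicates 1 to 4, the high library being the one with the highest atrial markers. Its log2 fold change of -0.83 (SE 0.437, edgeR adjusted p = 0.456) did not pass.

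Of the channels and anchors held at the disc 0 of 17 passed (median -0.02). Popdc2, a cAMP-binding membrane protein and the most abundant of them, had 287 ± 10.6 RPKM in KO and 258 ± 26.5 RPKM in NLC (SD, n = 4 each; log2 fold change 0.16, SE 0.0849, edgeR adjusted p = 0.461). In the list of beta-catenin signalling 0 of 20 passed (median -0.10). Axin2, the usual transcriptional readout of beta-catenin, had 0.801 ± 0.0828 RPKM in KO and 0.974 ± 0.124 RPKM in NLC (SD, n = 4 each; log2 fold change -0.28, SE 0.121, edgeR adjusted p = 0.408). Ccnd1, Csnk1a1 and Dkk3, the most abundant of this list, stood at -0.24, -0.12 and -1.58, and Dkk3 is also an atrial marker that peaked in NLC replicate 4 (44.1 RPKM).

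Markers of other cell types were set beside these values. No marker of the listed types passed by edgeR. Endothelial markers summed to 660 to 714 CPM in KO and 693 to 828 CPM in NLC, with 5 of 6 members below 0 in log2 fold change. The fibroblast list had 5 of 6 below 0, but with a median of -0.03 against -0.26 for the endothelial list. Below 0 were 4 of 7 mural, 3 of 6 macrophage and 2 of 4 Schwann markers. Of the tested markers, 3 of 3 mesothelial, 3 of 3 adipocyte, 2 of 2 lymphocyte and 0 of 1 epithelial lay below 0. Of the tested atrial markers 5 of 5 lay below 0, and of the ventricular ones 1 of 8. Among all tested genes 51% lay below 0. Fibroblast markers summed to 700 to 931 CPM in KO and 776 to 903 CPM in NLC, mural markers to 998 to 1060 CPM in KO and 976 to 1130 CPM in NLC, and macrophage markers to 215 to 355 CPM in KO and 233 to 315 CPM in NLC. The epithelial list, whose cells also carry desmosomes, summed to 1.27 to 3.37 CPM in KO and 0.938 to 3.91 CPM in NLC, with Epcam and Cdh1 at 0 in some libraries. Lymphocyte, Schwann and adipocyte sums reached 2.59, 13.2 and 5.69 CPM in KO and 3.56, 18.6 and 19.99 CPM in NLC. The part of these cells in the values of the disc genes was not tested.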

How the data were processed

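Stranded mRNA libraries were made from left ventricle RNA of 8 mice, per the labels' protocols. The authors deposited raw read counts per gene, 1 file per library, with 55487 gene identifiers and 5 summary entries, which entered no library size or test (multiply mapped reads 16.8% to 20.3% of all tallied). STAR, HTSeq, DESeq2 and GRCm38 are named in the submitters' processing notes. Versions, annotation release and strand setting are not stated there, so reads of opposite-strand genes that overlap cannot be told apart. Symbols and lengths came from GENCODE M21 (GRCm38), start windows from RefSeq.

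Counts were filtered with filterByExpr (14695 genes kept), scaled by TMM and fitted in edgeR 4.0.16 (R 4.3.3) with genotype and sex; adjusted p-values use the Benjamini-Hochberg method over all genes. SE is the log2 fold change divided by the square root of F. RPKM was computed from the counts. Alternatives were DESeq2 1.42.0, limma 3.58.1, scalings, filters, covariates and left-out libraries. The members and lists were chosen with earlier results of these data known. Named were the 10 members, called genes and the 3 most abundant of each partner list, Axin2, and the 5 genes most like Ctnna3. Some genes that this rule names are not reported here. P-values measure the spread between these libraries. Libraries of 1 group all differed beyond counting noise (chi-square per degree of freedom 15.3 to 41.7). Coefficients from counting cover counting error only.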

Additional observations from a re-analysis of the deposited data

Results flagged for a closer look

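Of 20 sets of 4 libraries (10 genes in each genotype), 2 held a library far from the other 3, where chance flags about 1 set in 20. Both concern Dsc2. It stood at 25.6 CPM in KO replicate 1, with the next KO library at 33.4 CPM, and at 51.1 CPM in NLC replicate 4, with the next NLC library at 34.3 CPM. NLC replicate 4 also had the highest atrial, mesothelial and adipocyte marker sums, and KO replicate 1 was the lowest library for 5 of the 10 genes.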

How the results depend on the processing

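The number of genes called between KO and NLC was 15. It was 621 with no low count filter, 141 by DESeq2, 6 with no sex term, 0 with the replicate block, 44 without NLC replicates 3 and 4, 81 in males only, 0 in females only, 30 at a threshold of 0.1, and 0 to 50 with 1 library left out. Ctnna3 was 1 called member, and 0 with no sex term, with the replicate block and in females only, and 0 to 1 with 1 library left out. Its log2 fold change stayed between -1.18 and -0.70 over 21 settings, and Ctnna3 was called in 12. These settings share libraries, so the 12 calls are not separate checks. The male count of 6 became 1007 with no filter, 330 by DESeq2, 29 at 0.1 and 0 to 59 with 1 library left out. The female count of 0 became 277, 14 and 0 to 81 (no filter, DESeq2, 1 library left out), that of the difference between the sexes, 0, became 243, 18 and 0 to 8, and that of males against females, 44, became 742, 217 and 16 to 176, with 82 at 0.1. The cause was not tested. Leaving out a library left 1 animal in a sex and genotype, assumed to vary like the other groups. Signs turned for genes near 0. Without NLC replicates 3 and 4, Ctnna1 was -0.01, Dsg2 -0.10 and Gja1 -0.17. No female control is left in that fit, so with sex as a term its genotype values rest on the males alone. It is therefore no separate check of the fit in males only, where Ctnna1 was -0.02, Dsg2 -0.11 and Gja1 -0.18. In females only, Dsp was 0.09. With 1 library left out, Dsg2 ranged from -0.07 to 0.14 and Gja1 from -0.05 to 0.13. Same-numbered KO and NLC libraries deviated together with correlations of -0.213 to 0.335, while KO replicate 3 and NLC replicate 4 reached 0.582. A pairing by number is thus not shown, and so few correlations cannot exclude it. Under the block the Ctnna3 value was -0.93 (edgeR adjusted p = 0.0522). The NLC share of Ctnna3 was 3.51% with the longest transcript.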
